A study of Mus musculus with 4 samples.

Results

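The genes described here are 10 components of the basement membrane. They are the collagen IV chains Col4a1, Col4a2 and Col4a5, the collagens Col15a1 and Col18a1, the laminin chains Lama4, Lama5, Lamb2 and Lamc1, and the linker protein Nid1. They were taken as a list of gene symbols. All 10 had UMIs (unique molecular identifiers, each counting 1 captured transcript) in each of the 4 libraries, among 26391 and 27696 genes listed for the ligation libraries and 31765 for each plaque library.

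Single cells were profiled by 10x Genomics 3′ sequencing in 2 experiments on C57Bl/6 mice, with 1 library per group and no replicate. Plaques came from the aortic root, aortic arch and carotid arteries of male mice that carried Myh11-CreERt2, the Confetti reporter and ApoE-/-, either without or with the Sm22a-Trf2T188A transgene; these mice had tamoxifen from 6 weeks of age and 14 weeks of high fat diet. Carotid arteries were ligated in male wild type control or SM22a-TRF2T188A mice of 4 to 5 months and taken 28 days later, with the adventitia removed. The transgene, a mutant of the telomere protein TRF2, is driven by a minimal Sm22a promoter active in arterial smooth muscle. Myh11-CreERt2 marks smooth muscle cells and their progeny. The authors had kept the plaque clusters that expressed Confetti, so single plaque cells without a Confetti UMI remain. The number of mice in each library is not given.

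The deposited cells numbered 1502 for ApoE-/- plaque, 929 for Trf2T188A/ApoE-/- plaque, 4967 for control ligation and 5392 for Trf2T188A ligation. These libraries held 37869934, 24064570, 47713453 and 67426588 UMIs, with medians of 22765.5, 24377, 8631 and 11153 UMIs per cell. The least number of genes in a cell was 1531 in ApoE-/- plaque and 1056 in Trf2T188A/ApoE-/- plaque, so the plaque libraries had been filtered differently. The plaque libraries shared 0 cell barcodes and the ligation libraries shared 10.

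A feature named hTRF2-transgene, listed in the plaque files, had 0 UMIs in the ApoE-/- library and 10 UMIs in the Trf2T188A/ApoE-/- library, as the labels have it. The ligation files list no such feature, so the genotype of those libraries was not checked in this way.

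Basement membranes are thin sheets of matrix that surround each smooth muscle cell and lie under the endothelium. Trimers of collagen IV and trimers of laminin, made of an alpha, a beta and a gamma chain, each form a network, and nidogen and perlecan link the networks. Cells hold on to them through integrins and dystroglycan, and contractile smooth muscle cells of the artery wall are embedded in such a sheet.

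Cells were grouped by their expression with all basement membrane lists left out of the clustering, and each group was named after a marker list where its own genes matched. The limits for a name were chosen with the clusters in view, and the names are likenesses. In the ligated artery the contractile-like name rests on Sparcl1, Tcap, Rbp4, Sphkap, Fmo2, Cped1, Pln and Mfap4. The list of contractile genes, such as Myh11 and Acta2, was used to name plaque clusters only. Cells are the barcodes in the files, and Scrublet marked 0, 3, 1 and 0 of them as doublets in ApoE-/- plaque, Trf2T188A/ApoE-/- plaque, control and Trf2T188A ligation; all were kept. In the ligated artery they were contractile-like cells (1621 control and 2323 Trf2T188A cells), remodelling-like cells with Igfbp2 and Postn (2044 and 1905), de-differentiated-like cells with Gdf10 and Ecrg4 (1101 and 970), interferon-responding-like cells (119 and 72), endothelial-like cells (62 and 65) and immune-like cells (20 and 57). In plaque they were contractile-like cells (503 ApoE-/- and 258 Trf2T188A/ApoE-/- cells, from clusters 0 and 4), fibromyocyte-like cells (158 and 122), chondrocyte-like cells (81 and 63), acute-phase-like cells with complement genes (111 and 84), Adamtsl1/Mdga2-like cells (39 and 37), Itih4/Wnt16-like cells (221 and 172), Pln/Sncg-like cells (43 and 22), long-gene-like cells (82 and 99) and the unnamed cluster 2 (229 and 71). Clusters 10 and 11, with 1 and 0 cells in the Trf2T188A/ApoE-/- library, were not compared between genotypes on their own. The 14 cells of cluster 11, of which 7.14% had a Confetti UMI, are part of all smooth muscle. Cluster 10, with 21 ApoE-/- cells, was named fibroblast-like and is not part of all smooth muscle.

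A level here is the summed UMIs of a gene per 10000 UMIs of a class in a library, with a 95% exact Poisson interval, and shares of cells carry Clopper-Pearson intervals; ratios of levels carry exact conditional binomial intervals. All of these intervals cover counting error only, not differences between animals. Because 3′ counting captures genes unequally, levels are compared between classes and libraries for a gene, not between genes, and where a marker list is summed or its largest part is named this counts captured UMIs only. A member was counted as higher or lower in a class than in contractile-like cells where the log2 ratio of its levels was at least 0.25 away from 0 in the same direction in both libraries of an experiment. Between genotypes it was counted where the log2 ratio of Trf2T188A over control passed 0.25 in either direction, and genes detected in under 10% of the cells of each side were not counted.

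After ligation, 6 of the 10 members were higher in remodelling-like than in contractile-like cells in both libraries (Col4a1, Col4a2, Col4a5, Col15a1, Lama5 and Nid1), against 6.89% of all genes tested. None was lower, against 13.7% of all genes. De-differentiated-like cells had 4 of 10 members higher (Col4a1, Col4a2, Col4a5 and Nid1), against 16.6% of all genes, and 2 lower (Col15a1 and Lama4), against 23.8%. The share of members that was lower in de-differentiated-like cells was thus near that of all genes, and with the difference of mean log2 values 2 members were higher and 1 lower. At the higher resolution 1 member was lower in remodelling-like cells.

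In plaque, 4 classes are counted here. Chondrocyte-like cells had 0 of 10 members higher, against 21.3% of all genes, and 8 lower, against 46.4%: all but Col15a1 and Nid1, with Lamc1 at 0.0114 and 0.0223 in the Trf2T188A/ApoE-/- library when read as a ratio of means over cells with pseudocounts of 1 and 0.1. Acute-phase-like cells had 1 member higher (Nid1), against 25.4% of all genes, and 7 lower, against 24.2%: all but Col15a1, Lamc1 and Nid1. Fibromyocyte-like cells had 3 members higher (Col15a1, Lamc1 and Nid1), against 27.1% of all genes, and 5 lower (Col4a5, Col18a1, Lama4, Lama5 and Lamb2), against 25.0%. Adamtsl1/Mdga2-like cells had 4 members higher (Col4a5, Col15a1, Lamc1 and Nid1), against 26.1%, and 1 lower (Lama4), against 13.2%; with a pseudocount of 1, with the difference of mean log2 values and at the lower resolution 2 were higher, and at the lower resolution, with reciprocal PCA, with Confetti cells only and without the highest doublet scores 2 were lower. At the higher resolution 3 members were lower in fibromyocyte-like cells. The members higher in fibromyocyte-like cells made up about the same share as all genes did, and those lower in Adamtsl1/Mdga2-like cells too.

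Col4a1 encodes a chain of the collagen IV trimer found in nearly all basement membranes. After ligation it was at 4.99 UMIs per 10000 (4.88 to 5.10) in control contractile-like cells and 4.48 (4.40 to 4.55) in those of the Trf2T188A library. Remodelling-like cells had 9.29 (9.15 to 9.42) and 8.90 (8.78 to 9.02), log2 ratios of 0.90 and 0.99 over contractile-like cells. Remodelling-like cells were the highest of the smooth muscle classes in both libraries; de-differentiated-like cells at 6.22 and 5.62 and interferon-responding-like cells at 6.61 and 5.14 lay between.

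Col4a2, the partner chain of Col4a1, was at 2.88 and 2.84 UMIs per 10000 in control and Trf2T188A contractile-like cells and at 6.64 and 6.92 in remodelling-like cells. Its log2 ratios of 1.21 (1.16 to 1.26) and 1.29 (1.25 to 1.32) exceeded those of Col4a1, and the intervals did not overlap. De-differentiated-like cells were nearer to contractile-like cells, at 3.47 and 3.59.

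Col4a5 is a chain of the collagen IV trimers that also hold Col4a6 in smooth muscle. It was at 2.12 UMIs per 10000 in contractile-like cells of both ligation libraries, at 4.21 and 4.09 in remodelling-like cells and at 3.81 and 4.02 in de-differentiated-like cells. For Col4a5 both modulated classes were well above the contractile-like cells, with log2 ratios from 0.85 to 0.99 over the 4 comparisons.

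**Figure D1:**
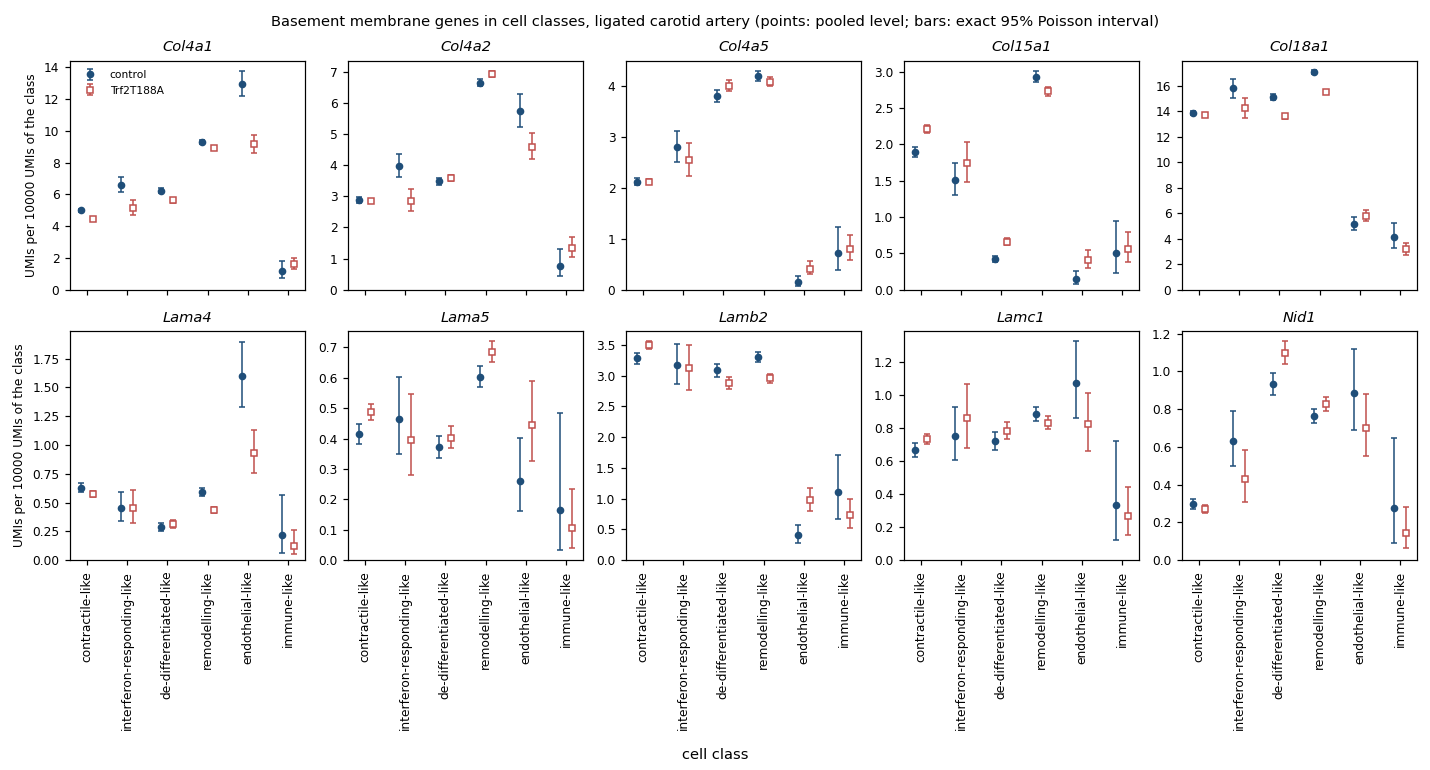
Level of each of the 10 genes (UMIs per 10000 UMIs of the class, linear axis from 0) in each cell class of the ligated carotid artery, for the control library (filled circles) and the Trf2T188A library (open squares); bars are exact 95% Poisson intervals. Col4a2, Col4a5 and Nid1 are higher in remodelling-like than in contractile-like cells, Col15a1 is low in de-differentiated-like cells, and Col4a5, Col15a1 and Lamb2 are low in endothelial-like cells.

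In plaque, Col4a1 was at 5.62 (5.49 to 5.77) UMIs per 10000 in ApoE-/- contractile-like cells and 5.52 (5.33 to 5.71) in those of Trf2T188A/ApoE-/-. Fibromyocyte-like cells held nearly the same level, 5.33 and 5.59, while chondrocyte-like cells were at 1.22 (1.10 to 1.34) and 1.47 (1.32 to 1.64). The chondrocyte-like cells were the lowest of the 9 plaque smooth muscle classes compared, in both libraries. Acute-phase-like cells lay lower than contractile-like cells as well, at 4.60 and 3.92. The range ran up to 7.08 and 9.23 in long-gene-like cells, whose median UMIs per cell were only 0.454 and 0.313 of their library's median.

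Col4a2 did not follow Col4a1 down in chondrocyte-like cells to the same extent. It was at 3.23 and 3.44 UMIs per 10000 in contractile-like cells and at 2.19 and 2.03 in chondrocyte-like cells. The log2 ratios of chondrocyte-like over contractile-like cells were −0.56 (−0.67 to −0.44) and −0.76 (−0.91 to −0.61) for Col4a2, against −2.20 (−2.35 to −2.06) and −1.91 (−2.07 to −1.75) for Col4a1.

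Counted as Col4a1 UMIs per Col4a2 UMI, contractile-like plaque cells had 1.74 (1.67 to 1.82) and 1.60 (1.52 to 1.70), and the chondrocyte-like cells had 0.556 (0.492 to 0.629) and 0.724 (0.628 to 0.833). A difference of this ratio between classes does not depend on how well either transcript is captured, so long as that is alike in all classes. The other 8 plaque classes compared, with both libraries, had ratios from 1.23 to 1.95. Among ligation classes the ratio was 1.73 and 1.58 in contractile-like cells, 1.40 (1.37 to 1.43) and 1.29 (1.26 to 1.31) in remodelling-like cells and 2.26 (2.03 to 2.53) and 1.99 (1.79 to 2.23) in endothelial-like cells. Remodelling-like cells thus had the lowest ratio among the smooth muscle classes of the ligated artery and endothelial-like cells the highest of all its classes, in both libraries.

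**Figure D2:**
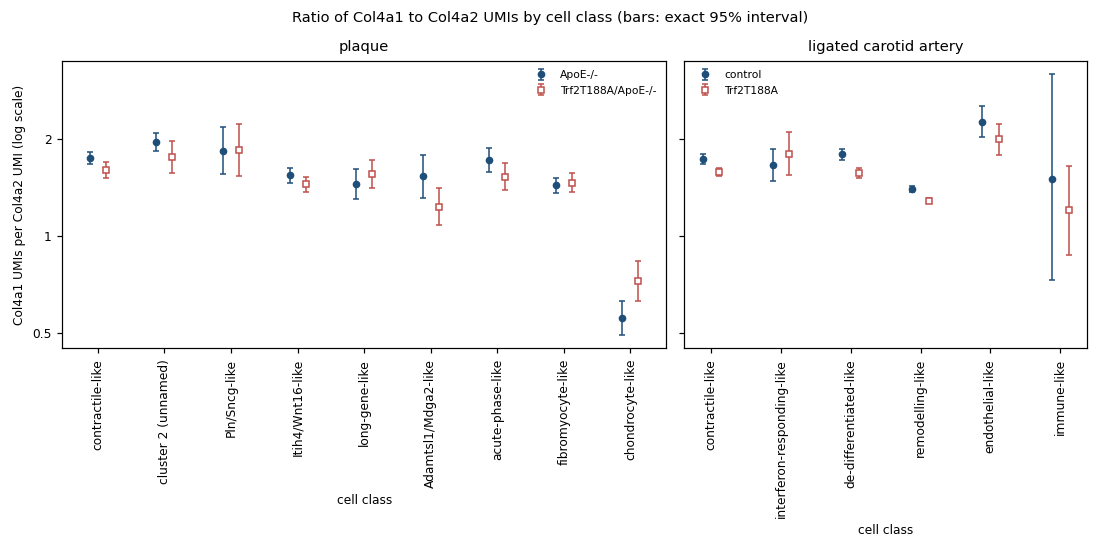
Col4a1 UMIs per Col4a2 UMI (log axis) in each cell class of plaque (left) and ligated carotid artery (right), for control libraries (filled circles) and Trf2T188A libraries (open squares); bars are exact 95% intervals. The chondrocyte-like cells, at 0.556 and 0.724, lie below every other plaque class drawn.

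Col4a5 in plaque was at 3.31 and 3.21 UMIs per 10000 in contractile-like cells, 1.86 and 2.27 in fibromyocyte-like cells and 2.05 and 1.82 in chondrocyte-like cells. Adamtsl1/Mdga2-like cells had 4.70 (4.23 to 5.20) and 4.39 (4.01 to 4.80). So Col4a5 was lower in fibromyocyte-like plaque cells (log2 ratios −0.83 and −0.50) and higher in the modulated classes of the ligated artery.

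Col15a1 encodes a collagen that bridges basement membranes and the matrix next to them, and whose C-terminal piece is related to endostatin. In plaque it was at 1.49 (1.42 to 1.56) and 1.68 (1.58 to 1.79) UMIs per 10000 in contractile-like cells and at 7.09 (6.52 to 7.70) and 7.03 (6.54 to 7.54) in Adamtsl1/Mdga2-like cells. Those were its highest levels among the 9 classes, with log2 ratios of 2.25 and 2.06. Fibromyocyte-like cells had 2.83 and 2.60, and chondrocyte-like cells had 1.43 and 1.80, within 0.25 of contractile-like cells in log2 ratio.

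Col15a1 separated the modulated classes of the ligated artery. It was at 1.89 (1.82 to 1.96) and 2.21 (2.15 to 2.26) UMIs per 10000 in contractile-like cells, at 2.93 and 2.73 in remodelling-like cells and at 0.416 (0.378 to 0.457) and 0.657 (0.613 to 0.705) in de-differentiated-like cells. The log2 ratios over contractile-like cells were 0.63 and 0.30 for remodelling-like cells and −2.19 and −1.75 for de-differentiated-like cells. Of the 10 members, Col15a1 had the lowest ratio in de-differentiated-like cells in both libraries.

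Col18a1, the collagen from which endostatin is released, was at 8.78 (8.61 to 8.96) and 9.65 (9.40 to 9.90) UMIs per 10000 in contractile-like plaque cells. It was at 3.44 and 3.96 in fibromyocyte-like cells, at 3.74 and 4.40 in acute-phase-like cells and at 1.43 (1.30 to 1.56) and 1.18 (1.05 to 1.33) in chondrocyte-like cells. All 3 classes were lower, with log2 ratios from −1.13 in acute-phase-like cells to −3.03 in chondrocyte-like cells. After ligation Col18a1 was nearly even over smooth muscle: 13.9 and 13.7 in contractile-like, 17.1 and 15.5 in remodelling-like and 15.1 and 13.6 in de-differentiated-like cells.

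Lama4 encodes the laminin alpha chain of vessel walls. In plaque it was at 1.28 (1.22 to 1.35) and 1.03 (0.947 to 1.11) UMIs per 10000 in contractile-like cells. It was at 0.366 and 0.415 in fibromyocyte-like, 0.447 and 0.430 in acute-phase-like, 0.337 and 0.306 in chondrocyte-like and 0.621 and 0.394 in Adamtsl1/Mdga2-like cells. Lama4 was the member counted as lower in all 4 of these classes. In ligated vessels it was at 0.629 and 0.572 in contractile-like cells and at 0.285 and 0.312 in de-differentiated-like cells, log2 ratios of −1.14 and −0.88; remodelling-like cells had 0.589 and 0.433.

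Lama5, the alpha chain of laminins of mature basement membranes, was at 0.675 and 0.605 UMIs per 10000 in contractile-like plaque cells. In chondrocyte-like cells it was nearly undetected, with 6 UMIs in 81 cells and 9 UMIs in 63 cells, or 0.0179 (0.00657 to 0.0390) and 0.0383 (0.0175 to 0.0727) per 10000. The log2 ratios were −5.24 (−6.69 to −4.11) and −3.98 (−5.12 to −3.04). A Lama5 UMI was seen in 7.41% (2.77 to 15.4) and 7.94% (2.63 to 17.6) of chondrocyte-like cells, at median depths of 36229 and 32841 UMIs, and in 66.8% and 62.0% of contractile-like cells, at 21589 and 24272.5. With each cell thinned to 8000 UMIs, which left out 3 and 6 chondrocyte-like and 13 and 28 contractile-like cells, the shares were 1.28% and 3.51% against 39.8% and 38.7%. Plaque holds no class of another lineage large enough in both libraries to give a background share. In ligated vessels Lama5 was at 0.414 and 0.487 in contractile-like and at 0.603 and 0.685 in remodelling-like cells.

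Lamb2 encodes a laminin beta chain of muscle and vessel walls, and Lamb1, from the list of other structural genes, a beta chain widespread in embryonic and endothelial basement membranes. In plaque Lamb2 was at 3.36 and 3.29 UMIs per 10000 in contractile-like cells, 1.78 and 1.82 in fibromyocyte-like, 2.10 and 1.63 in acute-phase-like and 0.755 and 0.715 in chondrocyte-like cells. The latter 3 classes were all lower. Lamb1, at 0.00632 and 0.00167 in contractile-like cells (7 UMIs and 1 UMI), was at 0.260 and 0.226 in fibromyocyte-like and at 0.211 and 0.156 in acute-phase-like cells. Lamb2 UMIs per Lamb1 UMI came to 6.86 (5.80 to 8.16) and 8.05 (6.41 to 10.2) in fibromyocyte-like cells.

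Lamb2 in the ligated artery varied little over smooth muscle, at 3.28 and 3.49 UMIs per 10000 in contractile-like, 3.30 and 2.95 in remodelling-like and 3.08 and 2.88 in de-differentiated-like cells. Lamb1 was at 0.0228 and 0.0226 in contractile-like and at 0.480 and 0.446 in de-differentiated-like cells. Lamb2 UMIs per Lamb1 UMI were 144 (103 to 207) and 155 (121 to 200) in contractile-like and 6.42 (5.84 to 7.06) and 6.46 (5.90 to 7.09) in de-differentiated-like cells. The ratio was lower in de-differentiated-like cells with Lamb2 nearly even and Lamb1 higher.

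Lamc1 encodes the gamma chain shared by most laminins. In plaque it was at 0.861 and 0.859 UMIs per 10000 in contractile-like cells, 1.43 and 1.07 in fibromyocyte-like cells and 0.474 and 0.613 in chondrocyte-like cells. Fibromyocyte-like cells were higher for Lamc1 (log2 ratios 0.73 and 0.32), and chondrocyte-like cells were lower (−0.86 and −0.49) except as a ratio of means over cells in the Trf2T188A/ApoE-/- library (0.0114 and 0.0223). In ligated vessels Lamc1 was at 0.666 and 0.731 in contractile-like and 0.883 and 0.832 in remodelling-like cells.

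Nid1 encodes nidogen, which links laminin to collagen IV. In contractile-like plaque cells it was at 0.107 (0.0890 to 0.129) and 0.129 (0.102 to 0.161) UMIs per 10000, and in fibromyocyte-like cells at 0.908 (0.834 to 0.987) and 0.719 (0.635 to 0.810). Acute-phase-like cells had 0.648 and 0.567. With log2 ratios of 3.08 and 2.48 in fibromyocyte-like and 2.59 and 2.14 in acute-phase-like cells, Nid1 had the highest ratio of the 10 members in both classes and both libraries.

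Nid1 in chondrocyte-like cells was at 0.242 (0.192 to 0.300) UMIs per 10000 in ApoE-/- and 0.106 (0.0688 to 0.157) in Trf2T188A/ApoE-/- plaque. The ApoE-/- cells were above contractile-like cells and the Trf2T188A/ApoE-/- cells were not, with log2 ratios of 1.17 and −0.27. In the ligated artery Nid1 was at 0.298 and 0.271 in contractile-like, 0.762 and 0.827 in remodelling-like and 0.934 and 1.10 in de-differentiated-like cells. The log2 ratios were 1.36 and 1.61 for remodelling-like and 1.65 and 2.02 for de-differentiated-like cells. So Nid1 was higher in the modulated smooth muscle of both experiments, apart from the chondrocyte-like cells, but not only there. Pln/Sncg-like plaque cells had 0.443 and 0.656 UMIs per 10000, also above the contractile-like plaque cells.

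A Nid1 UMI was seen in 17.9% (14.6 to 21.5) and 20.9% (16.1 to 26.4) of contractile-like plaque cells and in 67.1% (59.2 to 74.3) and 63.1% (53.9 to 71.7) of fibromyocyte-like cells, at median depths of 21589, 24272.5, 34295.5 and 29335.5 UMIs. With cells thinned to 8000 UMIs, which left out 13, 28, 6 and 14 cells, these shares were 9.18%, 9.13%, 35.5% and 43.5%. The fibromyocyte-like cells had the higher share at equal depth too. In the immune-like cells of the ligated artery the share was 5.0% of 20 cells and 10.5% of 57 cells, at medians of 6258.5 and 8403 UMIs. Those cells come from other libraries at lower depth, so they give no background for the plaque shares.

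**Figure D3:**
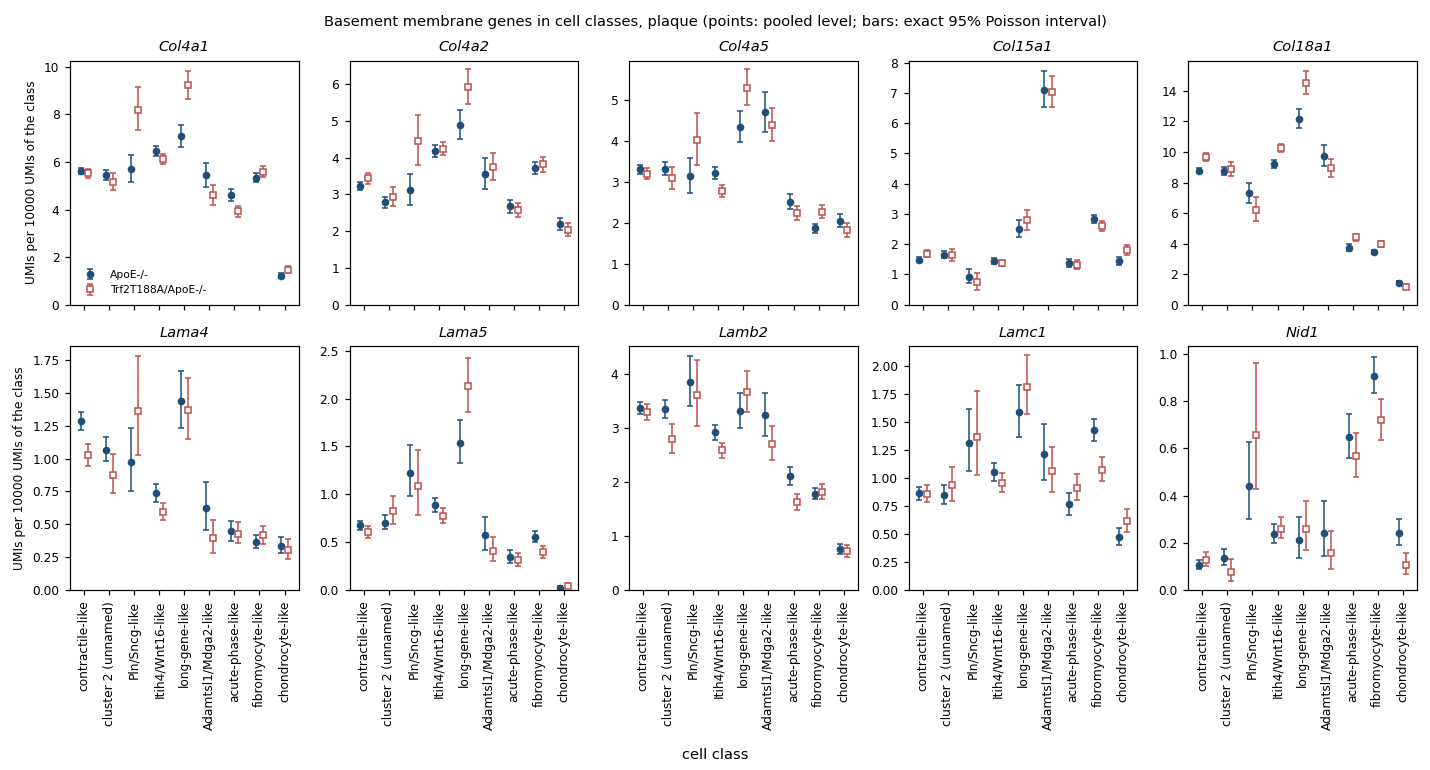
Level of each of the 10 genes (UMIs per 10000 UMIs of the class, linear axis from 0) in each smooth muscle class of plaque, for the ApoE-/- library (filled circles) and the Trf2T188A/ApoE-/- library (open squares); bars are exact 95% Poisson intervals. Col18a1, Lama5 and Lamb2 are lowest in chondrocyte-like cells, and Col15a1 is highest in Adamtsl1/Mdga2-like cells. Nid1 is high in fibromyocyte-like and acute-phase-like cells, and also in Pln/Sncg-like cells.

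The remaining plaque classes are given as levels. Pln/Sncg-like cells had Col4a1 at 5.71 and 8.20 UMIs per 10000, Lama5 at 1.23 and 1.09, and Nid1 at 0.443 and 0.656. Itih4/Wnt16-like cells had Col4a2 at 4.19 and 4.24 and Lama4 at 0.735 and 0.595. The unnamed cluster 2 was close to contractile-like cells for Col4a1, at 5.44 and 5.16, and Col18a1, at 8.74 and 8.89. It was less so for Lama5, at 0.705 and 0.824 against 0.675 and 0.605 in contractile-like cells. Nid1 was at 0.138 and 0.0755 against 0.107 and 0.129, higher in ApoE-/- and lower in Trf2T188A/ApoE-/- plaque. Long-gene-like cells had Col18a1 at 12.2 and 14.5, Lama5 at 1.54 and 2.13 and Lamc1 at 1.59 and 1.81, all above the contractile-like cells; 8 of 10 members were higher in them in both libraries, all but Lama4 and Lamb2, against 31.6% of all genes, and 0 were lower, against 31.2%. The part of their low depth in these levels was not tested.

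Endothelial-like cells were found in the ligated artery alone. All 12 endothelial markers had UMIs there, with summed levels of 70.1 and 62.4 UMIs per 10000 in the control and Trf2T188A libraries; Pecam1 gave the most UMIs of the list, at 14.7 and 13.1, and no marker was at 0. In contractile-like cells the same list summed to 0.322 and 0.313, with Cldn5 and Tek at 0 in both libraries and Kdr at 0 in the control library. The 10 contractile smooth muscle markers summed to 39.4 and 69.7 in the endothelial-like cells, all with UMIs, and Acta2 gave the most of them, at 17.1 and 30.2. Of the 10 immune markers, 3 and 2 had UMIs in the endothelial-like cells, summing to 8.98 and 4.70, nearly all of it Cd74; Ptprc, C1qa, C1qb, Tyrobp, Cd52, Cd3e and Fcer1g were at 0 in both libraries and Lyz2 in the Trf2T188A library.

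Against contractile-like cells, the endothelial-like cells had 4 of 10 members higher in both libraries (Col4a1, Col4a2, Lama4 and Nid1), against 33.7% of all genes, with Col4a2 in the Trf2T188A library at −0.0221 when read as a difference of mean log2 values. Another 4 were lower (Col4a5, Col15a1, Col18a1 and Lamb2), against 27.9%. With the difference of mean log2 values 2 were higher.

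Col4a1 was at 13 (12.2 to 13.8) and 9.16 (8.60 to 9.74) UMIs per 10000 in endothelial-like cells, and these were its highest levels among the classes of the control and of the Trf2T188A ligation library. Lama4 was likewise highest there, at 1.60 (1.33 to 1.90) and 0.933 (0.760 to 1.13). Col4a2 was at 5.72 and 4.59, above contractile-like cells (log2 ratios 0.99 and 0.69, the latter −0.0221 as a difference of mean log2 values) but below remodelling-like cells in both libraries.

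Col4a5 was at 0.15 (0.0773 to 0.261) and 0.416 (0.303 to 0.556) UMIs per 10000 in endothelial-like cells, or 4.40% (2.27 to 7.69) and 13.1% (9.53 to 17.5) of its level in all smooth muscle of the same library. Without the cells with the highest doublet scores, its log2 ratio of Trf2T188A over control there was −0.0674. The difference between these 2 levels thus depended on those cells. Myh11, a smooth muscle myosin that endothelial cells lack, was at 5.49% (4.64 to 6.46) and 10.1% (9.0 to 11.2) of its smooth muscle level, Acta2 at 10.5% and 17.4%, Tagln at 10.1% and 15.9% and Cnn1 at 3.2% (2.14 to 4.59) and 11.2% (9.35 to 13.2). Col4a5 lay within the range of these contractile genes in both libraries, and its own expression and free or carried-over smooth muscle RNA cannot be told apart here. A Col4a5 UMI was seen in 11.3% (4.66 to 21.9) and 24.6% (14.8 to 36.9) of endothelial-like cells at medians of 10407 and 14166 UMIs, and in 10.0% and 10.5% of immune-like cells at 6258.5 and 8403. Thinned to 5000 UMIs, which left out 5 and 1 endothelial-like cells and 5 and 11 immune-like cells, the shares were 5.26% and 9.38% against 13.3% and 10.9%.

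Col15a1 stood at 7.54% and 19.4% of its smooth muscle level in endothelial-like cells, and Lamb2 at 12.7% (8.73 to 17.8) and 30.5% (24.9 to 36.9). Col18a1 was at 33.2% (30.0 to 36.5) and 40.5% (37.4 to 43.8), above the shares of Myh11, Acta2, Tagln and Cnn1 in both libraries. In immune-like cells Col18a1 was at 26.7% (21.0 to 33.4) and 22.2% (19.1 to 25.7). The endothelial-like and immune-like intervals overlapped in control and not in the Trf2T188A library. The part of carried-over smooth muscle RNA in the endothelial level was not tested. Lamb1, in contrast to Lamb2, was at 1.61 and 0.785 UMIs per 10000 in endothelial-like cells, and Lamb2 UMIs per Lamb1 UMI were 0.256 (0.169 to 0.377) and 1.24 (0.919 to 1.66). Nid1 was at 0.885 and 0.702 and Lamc1 at 1.07 and 0.822 in these cells.

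In immune-like cells Col4a1 was at 1.16 and 1.61 UMIs per 10000, or 16.3% and 25.7% of its smooth muscle level. Col18a1 was at 4.15 and 3.19, or 26.7% and 22.2%, and Lamb2 at 1.11 and 0.734, or 34.2% and 23.1%. Myh11 was at 12.1% and 27.8% of its smooth muscle level, Acta2 at 15.2% and 17%, Tagln at 12.9% and 13.8% and Cnn1 at 9.79% and 18.4%. In control, Col18a1 and Lamb2 thus lay above these contractile genes, and in the Trf2T188A library they lay below Myh11. Col4a1 UMIs lay in 15.0% and 17.5% of the immune-like cells.

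Between genotypes, few members differed in the contractile-like cells of plaque. There 2 of 10 members passed the fold, Nid1 higher and Lama4 lower in Trf2T188A/ApoE-/-, against 20.9% of all genes, the same share. That count was lower with either pseudocount, with the difference of mean log2 values and at the lower and the higher resolution. It was also lower without cells under 2000 genes, without the highest doublet scores and with list genes among the variable genes. Nid1 rested on 119 UMIs in ApoE-/- and 77 UMIs in Trf2T188A/ApoE-/-, and its log2 ratio of 0.26 had an interval of −0.17 to 0.69. Over all smooth muscle of plaque 1 of 10 passed, Lama4, against 9.58% of all genes, and the count was the same without cluster 11, an alternative chosen after seeing the data.

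Lama4 had log2 ratios of Trf2T188A/ApoE-/- over ApoE-/- of −0.32 (−0.46 to −0.19) in contractile-like cells, −0.31 (−0.40 to −0.22) over all smooth muscle, −0.30 (−0.52 to −0.09) in Itih4/Wnt16-like cells and −0.29 (−0.57 to −0.02) in cluster 2. In Adamtsl1/Mdga2-like cells it was −0.66 (−1.28 to −0.04), and 0.20 with Confetti cells only. It was −0.14 (−0.59 to 0.30) in chondrocyte-like, −0.07 (−0.40 to 0.26) in long-gene-like, −0.06 (−0.43 to 0.31) in acute-phase-like and 0.18 (−0.13 to 0.48) in fibromyocyte-like cells. In Pln/Sncg-like cells it passed the fold upward, at 0.49 (−0.05 to 1.03), with an interval that reached 0. Within the contractile-like cells, Lama4 was at 1.04 (0.969 to 1.12) and 0.980 (0.887 to 1.08) UMIs per 10000 in cluster 0 and at 1.75 (1.62 to 1.88) and 1.13 (0.983 to 1.30) in cluster 4. The intervals did not overlap in cluster 4 and did in cluster 0, and whether the clusters differ was not tested. In contractile-like cells Lama4 no longer passed the fold with a pseudocount of 1, with the difference of mean log2 values, at the lower and the higher resolution and with reciprocal PCA, and over all smooth muscle it did not with either pseudocount or the difference of mean log2 values.

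In fibromyocyte-like cells 4 of 10 members passed the fold between genotypes, against 39.5% of all genes: Col4a5 was higher (0.28, 0.15 to 0.41) and Lama5 (−0.50, −0.79 to −0.21), Lamc1 (−0.41, −0.58 to −0.24) and Nid1 (−0.34, −0.55 to −0.12) were lower in Trf2T188A/ApoE-/-. In chondrocyte-like cells 5 of the 9 members tested passed, against 53.3% of all genes. Col4a1 (0.27), Col15a1 (0.33) and Lamc1 (0.37) were higher there and Col18a1 (−0.27) and Nid1 (−1.18, −1.89 to −0.52) lower, though Col18a1 turned to 0.0809 and 0.12 as a ratio of means over cells with pseudocounts of 1 and 0.1; Lama5 was detected in too few cells to be tested. In acute-phase-like cells 2 of 10 passed, against 42.9% of all genes, Lamc1 higher (0.25, −0.01 to 0.52) and Lamb2 lower (−0.37, −0.55 to −0.19). This count was higher with reciprocal PCA. It was lower with a pseudocount of 0.1, without cells under 2000 genes and with Confetti cells only. In Adamtsl1/Mdga2-like cells 4 of 10 passed, all lower, against 60.3% of all genes: Lama4 (−0.66), Lama5 (−0.47), Lamb2 (−0.25) and Nid1 (−0.63), of which Lama4 was 0.20 with only the cells that had a Confetti UMI.

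With a pseudocount of 1 and with the difference of mean log2 values, these counts were 1 and 0 in fibromyocyte-like, 3 and 1 in chondrocyte-like, 0 and 0 in acute-phase-like and 1 and 1 in Adamtsl1/Mdga2-like cells. None of these plaque counts exceeded the share of all genes by more than 1 member. The classes hold from 37 to 503 cells in a library, and the smaller the class, the larger the share of all genes past the fold was in general. No count between genotypes is given here for long-gene-like, Pln/Sncg-like and Itih4/Wnt16-like cells and cluster 2. In long-gene-like cells Col4a1 was at 7.08 in ApoE-/- and 9.23 in Trf2T188A/ApoE-/-, and Lama4 at 1.44 and 1.37. With 1 library per genotype, a difference between the genotypes and a difference between the mice or their handling cannot be told apart.

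After ligation, 0 of 10 members passed the fold between genotypes in contractile-like cells, against 12.9% of all genes, and 0 of 10 over all smooth muscle, against 10.7%. In these contractile-like cells the log2 ratios lay between −0.16 for Col4a1 and 0.24 for Lama5. In remodelling-like cells 1 of 10 passed, Lama4, which was lower in Trf2T188A (−0.44, −0.57 to −0.32), against 21.2% of all genes. De-differentiated-like cells had 1 of 10 past the fold, Col15a1, which was higher in Trf2T188A (0.66, 0.49 to 0.83), against 21.2% of all genes. With a pseudocount of 1, and with the difference of mean log2 values, 0 members passed in remodelling-like and in de-differentiated-like cells.

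Lama4 was at 0.589 (0.556 to 0.624) in control and 0.433 (0.407 to 0.460) UMIs per 10000 in Trf2T188A remodelling-like cells. The log2 ratio was −0.14 (−0.25 to −0.02) in contractile-like cells, 0.13 (−0.09 to 0.35) in de-differentiated-like cells, −0.02 (−0.64 to 0.59) in interferon-responding-like cells and −0.77 (−1.17 to −0.39) in endothelial-like cells. Whether the classes differ in this was not tested.

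In the endothelial-like cells, 9 of 10 members passed the fold between genotypes, against 57.8% of all genes. The count was 5 with a pseudocount of 1 and 4 with the difference of mean log2 values. Col4a5 (1.47, but −0.0674 without the cells with the highest doublet scores), Col15a1 (1.44), Lamb2 (1.24) and Lama5 (0.76) were higher in Trf2T188A, and Lama4 (−0.77), Col4a1 (−0.50), Lamc1 (−0.38, but 0.0650 as a difference of mean log2 values), Nid1 (−0.33) and Col4a2 (−0.32) were lower. Intervals reached past 0 for Lama5 (−0.01 to 1.57), Lamc1 (−0.83 to 0.06) and Nid1 (−0.82 to 0.15). The smooth muscle transcript Myh11 moved in the same way as the members that were higher, from 5.49% to 10.1% of its smooth muscle level, and the smooth muscle markers summed to 39.4 and 69.7 UMIs per 10000; the part of this RNA in the endothelial values was not tested.

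The other 19 structural genes of basement membranes, the 10 receptors and 14 genes of collagen biosynthesis and crosslinking were counted in the same way. The 14 genes were listed for collagen IV, but most are not particular to it. In fibromyocyte-like cells, where 27.1% of all genes were higher and 25.0% lower, 12 of 14 biosynthesis genes were higher and 0 lower; examples are Loxl2 (3.02 and 2.03), a collagen crosslinking enzyme, and Serpinh1 (1.60 and 1.31), a collagen chaperone. In chondrocyte-like cells, with 21.3% of all genes higher and 46.4% lower, 11 of 14 were higher and 0 lower, with Serpinh1 at 2.17 and 1.77 and P3h1 at 2.05 and 1.74. The members Col4a1 and Col4a2 were lower in those same chondrocyte-like cells. The top 10 genes of the chondrocyte-like cluster included the collagens Col2a1 and Col11a1, and those of the fibromyocyte-like cluster Col1a1. Which collagens the biosynthesis genes served was not tested. Acute-phase-like cells had 8 of 14 biosynthesis genes higher and 0 lower, against 25.4% and 24.2% of all genes. In Adamtsl1/Mdga2-like cells 3 were higher, near the 26.1% of all genes, and 0 lower, against 13.2%.

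Of the receptors tested in chondrocyte-like cells, 7 of 8 were lower and 1 higher, against 46.4% and 21.3% of all genes, with Bcam, a laminin receptor, at log2 ratios of −4.86 and −3.99 and Itga3 at −3.19 and −2.89. In fibromyocyte-like cells 6 of 10 were lower, against 25.0%, and 3 higher (Itga2, Itga6 and Itgb4), near the 27.1% of all genes. In acute-phase-like cells 6 of 8 were lower and 1 higher, against 24.2% and 25.4%, and in Adamtsl1/Mdga2-like cells 4 of 8 were lower and 1 higher, against 13.2% and 26.1%.

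Among the structural genes, 7 of 15 were higher and 5 lower in fibromyocyte-like cells, against 27.1% and 25.0% of all genes. Lamb1 was higher there, with log2 ratios of 5.36 (4.28 to 6.70) and 7.08 (4.56 to 12.4) that rest on 7 UMIs and 1 UMI in contractile-like cells. In chondrocyte-like cells 5 of 14 were higher, against 21.3%, and 7 lower, near the 46.4% of all genes, among them Tinagl1 (−5.59 and −5.34) and Npnt (−5.25 and −6.43). Acute-phase-like cells had 8 of 14 structural genes higher, against 25.4%, and 4 lower, near the 24.2% of all genes. Adamtsl1/Mdga2-like cells had 9 of 13 higher, against 26.1%, with Lamc3 at 2.98 and 3.14, and 1 lower, against 13.2%.

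In remodelling-like cells of the ligated artery, where 6.89% of all genes were higher and 13.7% lower, 5 of 14 biosynthesis genes were higher and 0 lower, with Loxl2 at 1.56 and 1.75 and Pxdn, the peroxidase that crosslinks collagen IV, at 0.99 and 1.26, beside the higher collagen IV chains. Of the structural genes, 4 of 13 were higher and 6 lower in these cells, and of the receptors 0 of 7 were higher and 2 lower. De-differentiated-like cells, with 16.6% of all genes higher and 23.8% lower, had 7 of 14 structural genes higher and 2 lower, with Lamb1 at 4.39 and 4.3 and Col4a3 at 1.98 and 2.31. They had 0 of 7 receptors higher and 4 lower, and 3 of 14 biosynthesis genes higher and 1 lower, the 3 being near the share of all genes. In endothelial-like cells 33.7% of all genes were higher and 27.9% lower. There, 4 of 15 structural genes were higher, among them Lamb1 (6.14 and 5.12), and 8 lower, 2 of 9 receptors were higher (Itga6 and Itgb4) and 5 lower, and 4 of 14 biosynthesis genes were higher and 2 lower, with Pxdn at 2.80 and 2.32. The 3 counts of higher genes in endothelial-like cells lay below the share of all genes.

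Correlations across units of class and library were taken on the log2 of the level plus 0.1. Col4a1 and Col4a2 had a Pearson correlation of 0.97 over 12 ligation units and 0.82 over 19 plaque units. The ligation units include the endothelial-like and immune-like cells. The plaque units include the 21 fibroblast-like cells of cluster 10 in the ApoE-/- library. Col4a5 and Col4a6 had 0.95 and 0.88, and Lamb2 and Lamb1 −0.44 and −0.41. Among the pairs of basement membrane genes correlated here, the highest value with a member in plaque was that of Col4a1 with Lama5, 0.94. The units share libraries and differ in depth, so these are descriptions. Of genes outside the lists, those most like the mean profile of the 10 members were Vcl (0.94), Nbeal1 (0.94), Slit3 (0.93), Dync1h1 (0.92) and Brd9 (0.92) in plaque, and Rnf11 (0.98), Hspb1 (0.98), Fermt2 (0.97), Palld (0.96) and Ift20 (0.96) in the ligated artery.

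For each member, the most similar gene in plaque was Pdlim1 for Col4a1, Ccdc68 for Col4a2, Ttc7b for Col4a5, Ndrg4 for Col15a1, Itga9 for Col18a1, Fryl for Lama4, Vcl for Lama5, Entpd1 for Lamb2, Dync1h1 for Lamc1 and Pde1a for Nid1, with correlations from 0.88 to 0.97. In the ligated artery it was Arid5b for Col4a1, Col4a1 itself for Col4a2, Bdnf for Col4a5, Scube3 for Col15a1, Aebp1 for Col18a1, Nol8 for Lama4, Hspb1 for Lama5, Jph2 for Lamb2, Creb3l2 for Lamc1 and Dnajb1 for Nid1, from 0.96 to 0.99.

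Several of these genes are neighbours in the genome (mouse build GRCm38.p6). Col4a1 lies on the minus strand of chromosome 8 from 11198423 to 11312826 and Col4a2 on the plus strand from 11312805 to 11449287, so that the starts of these divergent genes are 21 bases apart and their first 22 bases overlap. Col4a5 starts on the plus strand of chromosome X at 141475385, 1309 bases from the start of Col4a6, which runs the other way. Col4a5 UMIs per Col4a6 UMI were 1.37 (1.30 to 1.45) and 1.5 (1.44 to 1.56) in contractile-like cells of the ligated artery and 2.60 (2.50 to 2.71) and 3.6 (3.45 to 3.76) in remodelling-like cells. This divergent pair, like Col4a1 with Col4a2 in chondrocyte-like cells, therefore did not keep a fixed ratio over the classes.

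The shared start of Col4a1 and Col4a2 is shown because the ratio of this pair differed between classes. It is taken from the RefSeq promoter windows of GRCm38.p6 at chr8:11312801-11312830, plus strand, 5′ to 3′, with the 22 bases that belong to both genes in capitals.
Col4a1/Col4a2 start: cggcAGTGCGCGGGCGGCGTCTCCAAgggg

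The bases next to the starts of Col4a5 and Col4a6 are shown for the same reason, from the RefSeq windows upstream of each gene; the middle of the 1309 bases between the starts is not shown. For Col4a5 it is chrX:141475169-141475384, plus strand, with the match to CCAAT in capitals, and for Col4a6 chrX:141474077-141474326, minus strand, with the match to CCGCCC in capitals.
Col4a5: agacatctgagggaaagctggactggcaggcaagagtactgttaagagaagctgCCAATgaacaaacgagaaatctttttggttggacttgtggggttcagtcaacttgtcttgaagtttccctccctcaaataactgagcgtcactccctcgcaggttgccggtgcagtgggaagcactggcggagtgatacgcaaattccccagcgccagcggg
Col4a6: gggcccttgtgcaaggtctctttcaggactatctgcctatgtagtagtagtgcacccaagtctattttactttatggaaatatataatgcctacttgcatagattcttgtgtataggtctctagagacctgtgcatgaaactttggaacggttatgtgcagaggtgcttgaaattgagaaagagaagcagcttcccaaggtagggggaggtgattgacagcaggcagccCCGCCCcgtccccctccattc

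Of the 10 members, 8 had a promoter window in the RefSeq table. Searched on both strands, the letters GGGCGG were found in 6 of these windows, against 35.7% of all 32851 windows. The windows of Col4a1 and Col4a2 overlap, and the match in their shared start is counted in both. The letters CCAAT were found in 5, against 37.4%, and the letters TATAAA in 0, against 13.6%. A match is a run of letters and says nothing about binding.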

How the data were processed

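The deposited signal is each gene's UMIs divided by the cell's total and multiplied by 10000, linear, made by the authors with Cell Ranger 6.1.2 and Seurat 3.2.1 in R 3.6.2 (ligation) or Cell Ranger 7.0.0 and Seurat 4.3.0 in R 4.2.2 (plaque) per the labels, after their own filters of cells; the paper instead gives Seurat 4.3.0 for both, in R 4.2.2 for ligation and R 3.6.2 for plaque. From it, whole UMI counts were recovered for each cell, and 100% of the values came out whole within 0.01. Each library's cells, UMIs and depth are given in the report.

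The cells of each experiment were clustered without integration in Seurat 5.3.0 (R 4.3.3, Matrix 1.6.5), with 2000 variable genes, 18 principal components and resolution 0.9 for plaque, and 17 and 0.2 for ligation. A cluster took the name of a marker list with a mean log2 ratio of at least 0.5, at least 3 markers reaching it, and own markers among its top 10 genes. Classes under 20 cells in a library were not compared. Levels, ratios and exact intervals were computed in Python 3.11.15 with numpy 2.4.6, scipy 1.17.1 and pandas 2.3.3, after a test on simulated data. Doublets were scored with Scrublet in scanpy 1.11.5, and figures drawn with matplotlib 3.10.9.

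With 1 library per group no test between groups was made. Named genes are all members, and up to 4 of each other list with the largest ratios. Alternatives were pseudocounts of 1 and 0.1, the difference of mean log2 values, list genes allowed among variable genes, resolutions of 0.45 and 1.35 (plaque) and 0.1 and 0.3 (ligation), reciprocal PCA, leaving out the top 5% of cells by Scrublet score, cells under 2000 genes left out, only plaque cells with a Confetti UMI, no detection filter, means over cells, thinning, and, chosen after seeing the data, all plaque smooth muscle without cluster 11. The members and lists were chosen with earlier results of these data known.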

Additional observations from a re-analysis of the deposited data

Results flagged for a closer look

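For 3 members the log2 ratio of Trf2T188A/ApoE-/- over ApoE-/- passed the fold in opposite directions in 2 plaque classes with both intervals clear of 0. Members with an interval that reached 0 on either side are not listed here. Col18a1 was 0.26 in long-gene-like cells and −0.27 in chondrocyte-like cells, but the latter was 0.0809 and 0.12 as a ratio of means over cells with pseudocounts of 1 and 0.1. Lama5 was 0.47 in long-gene-like cells and −0.50 in fibromyocyte-like cells. Lamc1 was 0.37 in chondrocyte-like cells and −0.41 in fibromyocyte-like cells. In each case the difference between the classes was not tested, since there is 1 library per genotype.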

How the results depend on the processing

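No paired analysis was possible because each group is 1 library and no label pairs the animals. Of 254 counts under an alternative, 206 lay within 1.5 times the count given in the report and 48 did not. Of 2540 log2 ratios, 2107 lay inside the interval of the ratio given, 425 did not and 8 reversed. Of 350 levels as means over cells 251, and of 350 shares after thinning 84, lay inside the interval. Without the detection filter the 25 counts lay within 1.5 times; the genotype count in chondrocyte-like cells was 6. The lower resolution named no contractile-like or de-differentiated-like cells in the ligated artery and no acute-phase-like cells, so comparisons with these gave no value. Wherever a value moved or reversed, the cause was not tested.

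The reversed log2 ratios were these. With pseudocounts of 1 and 0.1, Lamc1 in chondrocyte-like over contractile-like cells of Trf2T188A/ApoE-/- was 0.0114 and 0.0223, and Col18a1 between genotypes in chondrocyte-like cells was 0.0809 and 0.12. With the difference of mean log2 values, Col4a2 in endothelial-like over contractile-like cells of the Trf2T188A library was −0.0221, and Lamc1 between genotypes in endothelial-like cells was 0.0650. Without the highest Scrublet scores, Col4a5 between genotypes in endothelial-like cells was −0.0674. With Confetti cells only, Lama4 between genotypes in Adamtsl1/Mdga2-like cells was 0.20.

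Members past the fold between genotypes came to these counts. With a pseudocount of 1 they were 0 in de-differentiated-like, remodelling-like, acute-phase-like and plaque contractile-like cells and all plaque smooth muscle, 1 in Adamtsl1/Mdga2-like and fibromyocyte-like, 3 in chondrocyte-like and 5 in endothelial-like cells. With a pseudocount of 0.1 they were 0 in all plaque smooth muscle, 1 in ligation contractile-like, acute-phase-like and plaque contractile-like and 2 in fibromyocyte-like cells. With the difference of mean log2 values they were 0 in de-differentiated-like, remodelling-like, acute-phase-like, plaque contractile-like and fibromyocyte-like cells and all plaque smooth muscle, 1 in ligation contractile-like, Adamtsl1/Mdga2-like and chondrocyte-like, and 4 in endothelial-like cells. Without cells under 2000 genes they were 1 in acute-phase-like and plaque contractile-like cells, and with Confetti cells only 1 in acute-phase-like and 3 in chondrocyte-like cells. Plaque contractile-like cells had 0 at the lower and at the higher resolution and 1 without the highest Scrublet scores and with list genes among the variable genes. Ligation contractile-like cells had 1 at the higher resolution and with reciprocal PCA; de-differentiated-like cells had 2 with list genes among the variable genes, and acute-phase-like cells 4 with reciprocal PCA.

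Against contractile-like cells, members higher in Adamtsl1/Mdga2-like cells were 2 with a pseudocount of 1, with the difference of mean log2 values and at the lower resolution. Members lower there were 2 with Confetti cells only, without the highest Scrublet scores, at the lower resolution and with reciprocal PCA. The difference of mean log2 values gave 2 higher and 1 lower in de-differentiated-like and 2 higher in endothelial-like cells. The higher resolution gave 1 lower in remodelling-like and 3 lower in fibromyocyte-like cells.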
